A study of Homo sapiens with 6 samples.

Results

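The 9 genes described here were taken by name from the gene column of 6 RNA-seq count tables, out of 23228 genes in each table. They comprise the estrogen receptors ESR1 and ESR2, the progesterone receptor PGR, the glucocorticoid receptor NR3C1, the orphan estrogen-related receptor ESRRA, the p160 coactivators NCOA1, NCOA2 and NCOA3, and the histone demethylase KDM1A. The cells were HEC-1-A, an established line of human endometrial adenocarcinoma. All cultures were grown in McCoy's 5A medium with 10% FBS, a serum that brings its own steroids. The control libraries (n = 3) received vehicle, and the treated libraries (n = 3) received SMIP34, a small molecule that binds PELP1, at 20 µM for 24 h. All values come from 1 cell line. Whether replicates were separate cultures is not given in the sources used here, so the p-values measure the spread between these libraries, which may be technical.

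PELP1 is a scaffold protein that docks on nuclear receptors and links them to enzymes that modify histones, among them KDM1A. A steroid receptor bound by its hormone recruits a p160 coactivator, which in turn brings histone acetyltransferases and methyltransferases to the target gene. KDM1A removes methyl groups from lysine residues of histone H3 and works in corepressor complexes as well as with receptors. In the normal endometrium, ESR1 drives growth under estrogen and induces PGR, which limits that growth. ESRRA resembles the estrogen receptors but binds no estrogen, and it controls genes of mitochondrial energy metabolism. NR3C1 answers to cortisol and is found in most cell types.

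Total counts ranged from 19562711 to 22014835 per library. CPM, counts scaled to library size with TMM factors, were used for levels, and levels of different genes were compared as CPM per kilobase of annotated exon. All 10 epithelial markers examined, such as EPCAM and KRT19, had at least 1 CPM in each control library, and of these CLDN4 (log2 fold change 0.19) and ELF3 (0.30) were called higher with SMIP34 and KRT19 (-0.17), KRT8 (-0.12) and MUC1 (-0.32) lower. The summed level of 10 stromal markers was between 9.57 and 10.3 CPM in control and between 9.34 and 10.0 CPM in SMIP34 libraries, with LUM, PDGFRA and HAND2 at 0. The sum of 10 immune markers was between 2.12 and 3.14 CPM in control and between 3.65 and 4.35 CPM with SMIP34, with CD3E, CD3D, MS4A1 and NKG7 at 0. The stromal marker COL1A1 (from 2.96 to 4.19 CPM, adjusted p = 0.0151) and the immune marker CSF1R (from 1.32 to 2.13 CPM, adjusted p = 0.0323, with overlapping groups) were called higher. The sum of 8 endothelial markers did not exceed 1.03 CPM. The cultures were of a single line, whose identity the study reports as checked by short tandem repeat analysis. Whether any other cells were present was not tested, and bulk RNA cannot tell fewer cells of a type from less RNA per cell. A test on 13408 genes, with edgeR's quasi-likelihood method and Benjamini-Hochberg adjustment over all of them, called 34.6% of genes at an adjusted p-value under 0.05. With an absolute log2 fold change over 0.5 in addition, 3.31% were called, 1.44% higher and 1.87% lower with SMIP34.

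Promoter sequences are shown for the most abundant receptor of the set and for the pair of members that differed between the groups, since each of these has a single annotated start. RefSeq windows from 250 bases before to 50 bases after the start (GRCh38.p14) were found for 8 of the 9 genes. Capitals mark the letters GGGCGG on either strand, the core of the box bound by SP1-type factors, where matches may overlap. This motif occurs in 45.0% of the 35116 promoter windows of the same length.
ESRRA, chr11:64305274-64305573, plus strand: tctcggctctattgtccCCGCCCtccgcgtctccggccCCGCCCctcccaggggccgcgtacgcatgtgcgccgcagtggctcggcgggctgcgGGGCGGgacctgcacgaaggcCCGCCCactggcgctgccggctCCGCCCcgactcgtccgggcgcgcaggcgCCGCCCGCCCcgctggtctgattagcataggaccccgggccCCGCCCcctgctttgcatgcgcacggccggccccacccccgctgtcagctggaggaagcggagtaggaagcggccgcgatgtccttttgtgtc
KDM1A, chr1:23019218-23019517, plus strand: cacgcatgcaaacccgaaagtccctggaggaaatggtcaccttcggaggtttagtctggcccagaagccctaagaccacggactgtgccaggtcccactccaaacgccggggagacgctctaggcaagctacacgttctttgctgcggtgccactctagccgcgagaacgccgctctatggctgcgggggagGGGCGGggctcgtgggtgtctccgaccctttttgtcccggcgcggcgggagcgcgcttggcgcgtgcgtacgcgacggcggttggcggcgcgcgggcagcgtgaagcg
NCOA3, chr20:47501637-47501936, plus strand: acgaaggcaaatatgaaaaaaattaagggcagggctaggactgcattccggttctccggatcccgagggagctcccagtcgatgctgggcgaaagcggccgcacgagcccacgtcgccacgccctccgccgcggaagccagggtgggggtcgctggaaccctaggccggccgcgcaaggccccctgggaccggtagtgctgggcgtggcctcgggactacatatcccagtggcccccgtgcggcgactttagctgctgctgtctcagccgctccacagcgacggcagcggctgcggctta
The ESRRA window held 8 matches, the KDM1A window 1 and the NCOA3 window 0. CpG dinucleotides numbered 39 in ESRRA, 36 in KDM1A and 30 in NCOA3, against a median of 14 over all windows. The 6 annotated windows of ESR1 held between 4 and 17 and the 5 of ESR2 between 3 and 34. The 7 windows of NR3C1 held between 0 and 51 and the 3 of NCOA1 between 0 and 55. None of the windows of ESRRA, KDM1A or NCOA3 held the receptor half-site AGGTCA on either strand, which occurs in 13.8% of all windows, or the glucocorticoid half-site AGAACA, which occurs in 14.8%. These matches describe the letters of the windows only.

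Which receptors were expressed was examined first in the control cells. ESR1 and PGR transcripts were practically absent, ESR2 was present at a trace level, and NR3C1 and ESRRA were expressed. Of the 5 receptors, 2 had at least 1 CPM in each control library, and with NCOA1, NCOA2, NCOA3 and KDM1A this made 6 of the 9 genes. The same 6 genes passed at 0.5 CPM and at 1 CPM per kilobase.

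ESR1 (hg19, chromosome 6, from 152011631 to 152424408, 12 exons) had 0 counts in control replicates 1, 2 and 3 and in SMIP34 replicates 1 and 2, and 1 count in SMIP34 replicate 3. A count of 0 among the 62374974 counts of the control group allows a level of up to 0.0481 CPM, taking 3 counts as the limit for the group. Such limits cover counting error only. PGR (chromosome 11, from 100900355 to 101000544) had 1 count in control replicate 1 and 0 in each of the other 5 libraries. Both genes were left out of the test by the filter on low counts, and no fold change is given for either.

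ESR2 (chromosome 14, from 64693751 to 64805268), the gene of estrogen receptor beta, had 12, 11 and 9 counts in control replicates 1, 2 and 3 and 13, 20 and 12 counts in SMIP34 replicates 1, 2 and 3. Its levels were 0.618, 0.506 and 0.433 CPM in control and 0.592, 0.925 and 0.555 CPM in SMIP34 libraries, so that the groups overlapped and SMIP34 replicate 2 stood highest. The log2 fold change was 0.41, with a 95% interval from -0.37 to 1.19 (SE 0.38, adjusted p = 0.434, edgeR). Without SMIP34 replicate 2 it was 0.15. A difference of ESR2 was not detectable at this depth, and the interval runs from -22.4 to 129%.

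NR3C1 (chromosome 5, from 142657496 to 142815077) had 16.9, 14.03 and 16.7 CPM in control replicates 1, 2 and 3 and 16.998, 15.3 and 17.7 CPM in SMIP34 replicates 1, 2 and 3. The groups overlapped, and the lowest value was that of control replicate 2. On the log2 scale the difference was 0.07 (95% interval from -0.10 to 0.24, standard error 0.083, adjusted p = 0.534, edgeR). It was -0.01 without control replicate 2, and it was below 0 with offsets for gene length.

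ESRRA (chromosome 11, from 64073044 to 64084210, 7 exons) had 79.2, 79.5 and 78.7 CPM in control replicates 1, 2 and 3, a narrow range (79.1 ± 0.378 CPM, SD, n = 3). With SMIP34 it had 77.2, 86.0 and 81.7 CPM in replicates 1, 2 and 3, which lie on both sides of the controls. The log2 fold change was 0.05 (95% interval from -0.04 to 0.13, standard error 0.040, adjusted p = 0.416, edgeR), an interval from -2.55 to 9.26%. With offsets for gene length and GC content together it was 0.10 and passed the threshold (adjusted p = 0.0434).

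**Figure D1:**
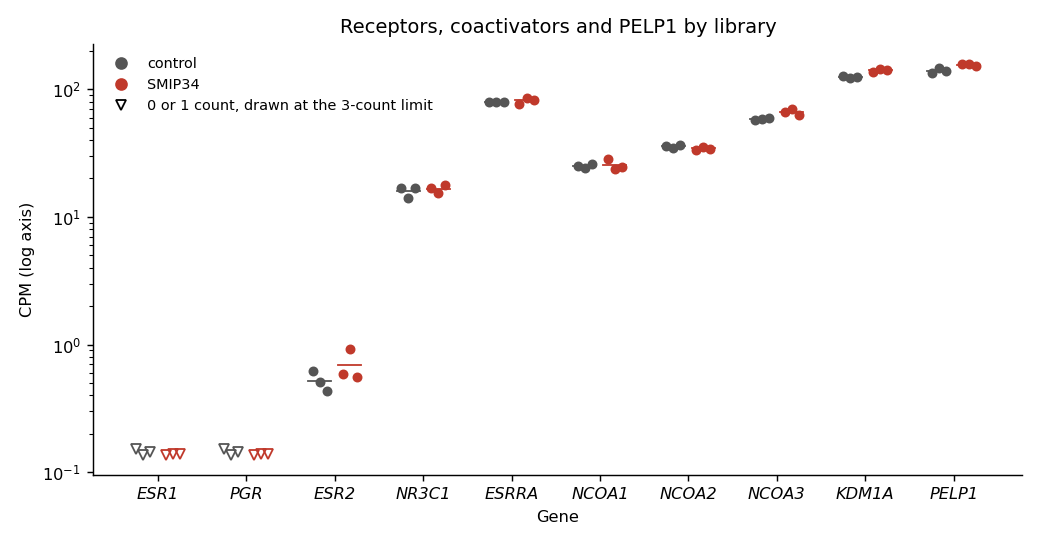
CPM (log axis) of the 9 genes and PELP1 in each of the 6 libraries. Circles are libraries, grey for control and red for SMIP34, short lines are group means (n = 3), and open triangles are libraries with 0 or 1 count, drawn at the limit of 3 counts in that library. ESR1 and PGR hold only triangles, and KDM1A and NCOA3 are the genes of the set whose groups do not overlap.

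Per kilobase of exon, the control levels followed the order KDM1A, ESRRA, NCOA3, NCOA2, NCOA1, NR3C1, ESR2, PGR and ESR1. KDM1A was at 40.1 ± 0.923 CPM per kilobase and ESRRA at 35.6 ± 0.170 CPM per kilobase (SD, n = 3 each), at the 83.1st and 81.1st percentiles of the genes tested. NCOA3 was at 7.27 ± 0.184, NCOA2 at 5.78 ± 0.168 and NCOA1 at 3.62 ± 0.133 CPM per kilobase (SD, n = 3 each). NR3C1 was at 1.68 ± 0.169 and ESR2 at 0.137 ± 0.0245 CPM per kilobase (SD, n = 3 each). The ranges of neighbours in this order did not overlap over the 3 control libraries, except those of PGR and ESR1. Per kilobase, ESRRA stood 21.2-fold above NR3C1, NR3C1 stood 12.3-fold above ESR2, and ESRRA was at least 5161-fold higher than ESR1, with ESR1 set to its limit of 3 counts over the control group.

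Within the whole nuclear receptor family of 48 genes, 30 had at least 1 CPM in each control library. ESRRA had rank 3 per kilobase, after the oxysterol receptor gene NR1H2 (73.4 ± 2.78 CPM per kilobase) and the orphan receptor gene NR2F6 (68.7 ± 1.798 CPM per kilobase, SD, n = 3 each). NR1D2, a repressor of the circadian clock, followed at 22.2 CPM per kilobase, RXRA, the common heterodimer partner, at 20.4, and NR0B1, an atypical receptor without a DNA-binding domain, at 19.9. NR3C1 had rank 22. The mineralocorticoid receptor gene NR3C2, the closest relative of NR3C1, was also expressed by this measure, at 0.691 CPM per kilobase. RXRB, named here for its annotation and not by rule, had rank 30. It is annotated on 6 sequences of hg19, so its level per kilobase is uncertain.

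**Figure D2:**
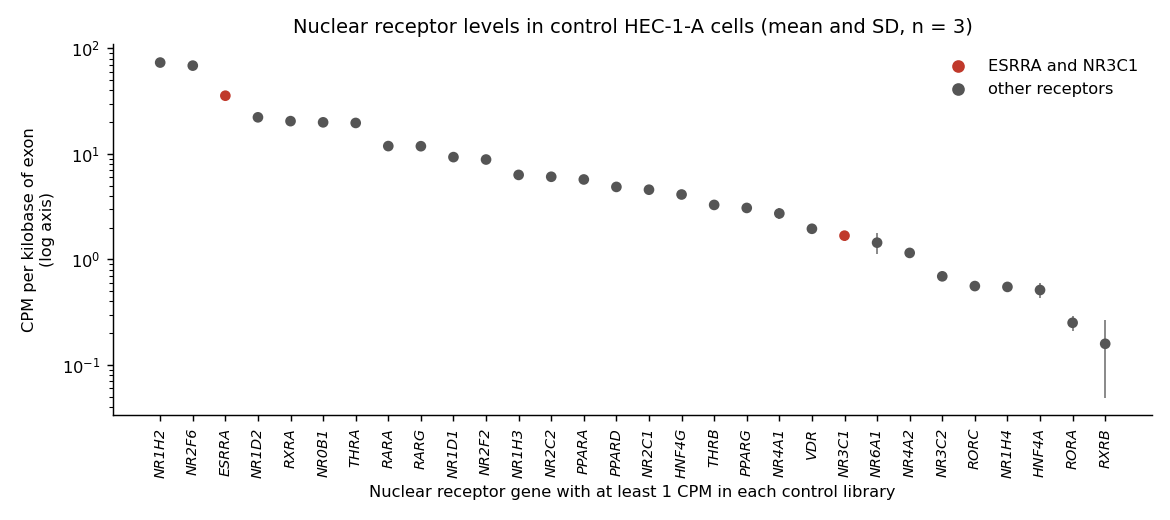
Control levels in CPM per kilobase of exon (log axis) of the 30 nuclear receptor genes with at least 1 CPM in each control library, in descending order. Points are means and bars are SD (n = 3), with ESRRA (rank 3) and NR3C1 (rank 22) in red.

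Whether SMIP34 changed these transcripts was examined in the 7 genes that passed the filter. KDM1A and NCOA3 rose slightly and the other 5 tested genes did not pass the test. This is 2 of 7 genes (28.6%), against 34.6% of all genes tested. Called higher were the same 2 of 7 (28.6%), against 17.4% of all genes, with a further 17.2% of all genes called lower. The groups did not overlap for these genes alone, against 44.5% of all genes. With edgeR, 0 of the 7 genes passed the fold limit, 2 had an unadjusted p-value under 0.05, and DESeq2 and limma voom also gave 0 past the limit and the same 2 calls.

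KDM1A (chromosome 1, from 23345941 to 23410184, 21 exons) had 127, 121 and 125 CPM in control replicates 1, 2 and 3 and 137, 144 and 142 CPM in SMIP34 replicates 1, 2 and 3. The lowest treated value exceeded the highest control value. The increase was 13.1% (95% interval from 7.88 to 18.6%), or 0.18 on the log2 scale (SE 0.033, adjusted p = 0.000145, edgeR). It kept this side of the threshold in all 19 fits that were run, with log2 fold changes between 0.16 and 0.20.

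NCOA3 (chromosome 20, from 46130601 to 46285621, 23 exons), the coactivator also known as AIB1, had 57.0, 58.2 and 60.0 CPM in control replicates 1, 2 and 3. With SMIP34 it had 66.9, 69.6 and 63.3 CPM in replicates 1, 2 and 3, all of them above the highest control value. The increase was 14.05% (95% interval from 7.23 to 21.3%), or 0.19 on the log2 scale (SE 0.043, adjusted p = 0.00119, edgeR). The exons of NCOA3 sum to 8026 bases, in the longest of 10 equal length bins of the genes tested, whose median log2 fold change was 0.12, against -0.10 in the shortest bin. With offsets fitted on gene length in each library, the log2 fold change of NCOA3 was 0.11 (adjusted p = 0.0374), and with offsets for length and GC content it was 0.09 and no longer passed (adjusted p = 0.0858). The same offsets gave 0.18 and 0.19 for KDM1A.

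NCOA1 (chromosome 2, from 24807346 to 24993570), also known as SRC-1, had 25.0, 24.3 and 26.1 CPM in control replicates 1, 2 and 3 and 28.4, 23.8 and 24.6 CPM in SMIP34 replicates 1, 2 and 3. SMIP34 replicate 1 was the highest and SMIP34 replicate 2 the lowest of all 6. SMIP34 minus control was 0.03 on the log2 scale (95% interval from -0.11 to 0.17, standard error 0.067, adjusted p = 0.791, edgeR), and its sign changed with length offsets and without SMIP34 replicate 1.

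NCOA2, which lies on chromosome 8 and is also known as TIF2 or GRIP1, had 36.0, 34.4 and 36.4 CPM in control replicates 1, 2 and 3. With SMIP34 it had 33.7, 35.6 and 33.9 CPM, which overlaps the controls. The difference was -0.05 on the log2 scale (95% interval from -0.16 to 0.06, standard error 0.052, adjusted p = 0.499, edgeR), and it stayed below 0 in all 19 fits.

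**Figure D3:**
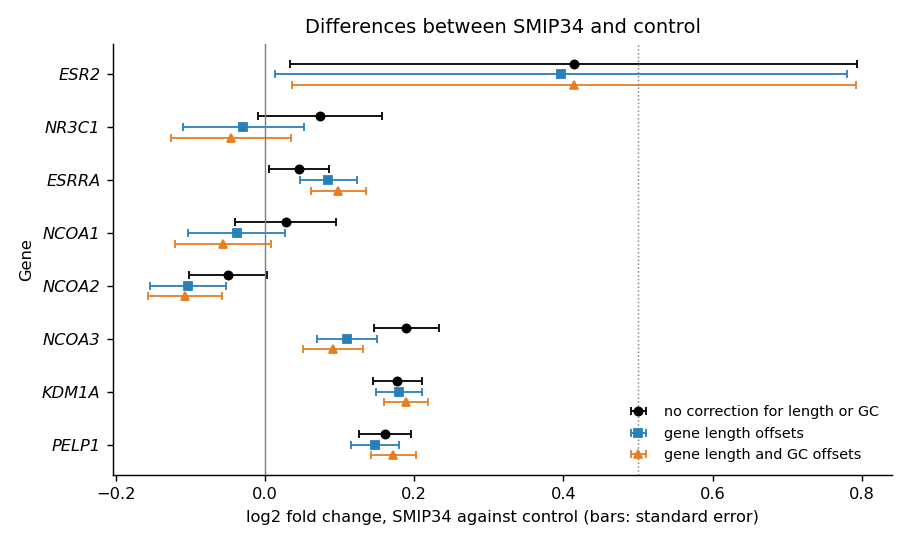
Log2 fold changes of SMIP34 against control for the 7 tested genes and PELP1, with standard errors as bars, under 3 fits: without correction for length or GC content (circles), with gene length offsets (squares) and with gene length and GC offsets (triangles). The dotted line marks 0.5. KDM1A and PELP1 stay between 0.15 and 0.19, and NCOA3 moves from 0.19 to 0.09.

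The p160 coactivators were also compared with one another, because a receptor can use any of them. Per kilobase, their summed level was 16.7 ± 0.419 CPM in control and 17.6 ± 0.552 CPM in SMIP34 libraries (SD, n = 3 each). NCOA3 held 42.9, 44.4 and 43.6% of this sum in control replicates 1, 2 and 3 and 46.6, 48.5 and 46.6% in SMIP34 replicates 1, 2 and 3. NCOA2 held 35.3, 34.2 and 34.5% in control and 30.6, 32.3 and 32.5% with SMIP34. Neither share overlapped between the groups, while the share of NCOA1 (21.7 ± 0.278% in control and 21.0 ± 1.86% with SMIP34, SD, n = 3 each) did. The shares are tied, since they add up to the whole, and the levels of NCOA2 itself overlapped between the groups. They were computed without length offsets, which lowered the log2 fold change of NCOA3 to 0.11. Levels also did not overlap between the groups for 44.5% of all genes tested. Whether the difference of NCOA3 differs from that of NCOA2 was not tested.

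**Figure D4:**
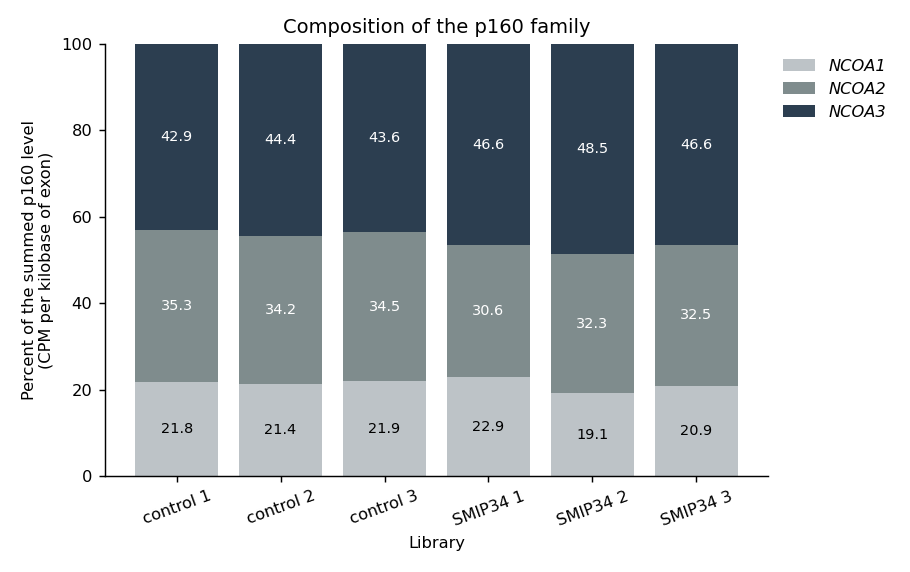
Share in percent that NCOA1, NCOA2 and NCOA3 held of the summed p160 level (CPM per kilobase of exon) in each of the 6 libraries. The NCOA3 segment is 42.9 to 44.4% in control and 46.6 to 48.5% in SMIP34 libraries.

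The mRNA of PELP1, the protein that SMIP34 binds, had 133, 146 and 138 CPM in control replicates 1, 2 and 3 and 158, 159 and 151 CPM in SMIP34 replicates 1, 2 and 3. The groups did not overlap, with a difference of 0.16 on the log2 scale (SE 0.035, adjusted p = 0.000746, edgeR). These values are of mRNA, while the study reports from Western blots that SMIP34 lowered PELP1 protein in endometrial cancer cells. The study also reports faster loss of that protein with SMIP34 in a cycloheximide chase. Protein was not measured in these libraries. Per kilobase, the control level of KDM1A was 1.06-fold that of PELP1. Over the 6 libraries, the centred log2 CPM of KDM1A was closest to that of PSMD1, a proteasome subunit gene, at a Euclidean distance of 0.0240 among 12605 genes of at least 1 CPM on average. The gene closest to NCOA3 was STAT3, a cytokine-activated transcription factor, at a distance of 0.0342, and the gene closest to PELP1 was RBM26, at 0.0385. Each is the closest of 12605 genes over only 6 libraries, and shared regulation was not tested.

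The other 43 nuclear receptor genes were compared with the receptors of the set. Of the 29 that were tested, 9 rose and 2 fell with SMIP34 (37.9%, against 34.6% of all genes), and the median log2 fold change was 0.04, against -0.0022 over all genes tested. NR4A2 rose from 4.07 ± 0.402 to 8.15 ± 0.425 CPM (log2 fold change 1.01) and NR4A1 from 7.92 ± 0.931 to 15.5 ± 0.878 CPM (0.97, SD, n = 3 each), both immediate early genes. NR1D1, a clock repressor, rose from 25.8 ± 1.32 to 40.0 ± 3.34 CPM (0.63), and NR1D2 rose by 0.20 on the log2 scale. NR2F2, also known as COUP-TFII, fell from 54.0 ± 1.798 to 43.2 ± 0.643 CPM (-0.32). RXRA had -0.10, a call lost when libraries were scaled by size only and without SMIP34 replicate 1. A further receptor past the fold limit, NR4A3, was named after its values were seen. It had 5, 2 and 3 counts in control and 16, 19 and 22 counts in SMIP34 libraries.

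A list of other receptor coactivators, which holds acetyltransferases, methyltransferases, Mediator and SWI/SNF subunits and further NCOA and PPARGC1 genes, had 19 of 29 tested genes called, 12 higher and 7 lower (65.5%, against 34.6% of all genes), with a median log2 fold change of 0.04. With gene length offsets 12 were called (41.4%, against 31.5% of all genes in the same fit). MED12, a subunit of the Mediator kinase module, rose from 20.3 ± 1.22 to 27.6 ± 0.775 CPM (log2 fold change 0.44), and the acetyltransferase gene EP300 rose from 69.8 ± 2.78 to 90.4 ± 4.55 CPM (0.37, SD, n = 3 each). With gene length offsets the log2 fold change of EP300 was 0.28, and it was still called. PPARGC1B, a coactivator of ESRRA, rose from 9.66 to 12.3 CPM (0.35), a call lost with gene length offsets (adjusted p = 0.0694 for the log2 fold change of PPARGC1B) and without control replicate 1. The acetyltransferase gene KAT5 (log2 fold change -0.27), the methyltransferase gene PRMT2 (-0.22) and NCOA5 (-0.17) were lower, the last not by DESeq2, by library size alone or without control replicate 1, SMIP34 replicate 1 or SMIP34 replicate 2.

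Of the 16 receptor corepressor genes, 5 were higher and 4 lower (56.3%, against 34.6%). With gene length offsets 11 were called (68.8%, against 31.5% of all genes in the same fit). SPEN, a large corepressor of nuclear receptors, rose from 94.2 ± 3.06 to 125 ± 0.446 CPM (log2 fold change 0.41, SD, n = 3 each), SAFB had 0.20 and LCOR 0.24. Over the 19 fits the log2 fold change of SPEN lay between 0.28 and 0.44, and it was called in all 19. The log2 fold change of LCOR was no longer called with length offsets (adjusted p = 0.0844). CTBP2 (-0.14), CTBP1 (-0.12) and PHB2 (-0.09) were lower. The log2 fold change of PHB2 lost its call with length offsets (adjusted p = 0.591), by library size alone and without any 1 of the SMIP34 replicates.

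In the complexes around KDM1A, 7 of 23 tested genes were higher and 2 lower (39.1%, against 34.6%), with a median log2 fold change of 0.04. RCOR1, the CoREST scaffold that holds KDM1A on nucleosomes, rose from 62.7 ± 4.16 to 73.9 ± 3.10 CPM, or 0.24 on the log2 scale (SD, n = 3 each, adjusted p = 0.000218, edgeR). CHD4, the helicase of the NuRD complex, rose by 0.35 and its partner GATAD2B by 0.32 on the log2 scale. MBD3 was lower (-0.14), as was the deacetylase gene HDAC1 (-0.07), whose adjusted p-value was 0.0424. The log2 fold change of HDAC1 was called in 7 of 19 fits, and not with DESeq2, with length offsets (adjusted p = 0.442) or without any 1 library.

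Estrogen receptor target genes were examined next, in cells where ESR1 had no counts in control. Of 30 such genes, 17 were tested, 3 of which were higher and 8 lower with SMIP34 (64.7%, against 34.6%), and 6 had 0 counts in all controls. TFF1, named here as a textbook target and not by rule, had 0 counts in all 6 libraries, and GREB1, named likewise, had between 14 and 20 counts per library. The genes past the fold limit were KRT13, a keratin (from 18.5 to 8.63 CPM, log2 fold change -1.10), PDZK1, a scaffold of membrane transporters (-0.64), FOXC1, a forkhead transcription factor (-0.63), SLC7A5, an amino acid transporter (-0.60), and MYB (from 3.27 to 5.02 CPM, 0.61). RARA rose by 0.19 on the log2 scale. CA12 had an adjusted p-value of 0.0499, which was above 0.05 in 14 of the other 18 fits. The study labelled SLC7A5 on these same libraries, so it is not independent evidence of direction. The median log2 fold change of estrogen receptor targets was -0.02, and it was -0.15 without control replicate 1 and 0.02 without control replicate 3.

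Glucocorticoid receptor target genes were higher in 11 and lower in 3 of 21 tested (66.7%, against 34.6%), with a median log2 fold change of 0.18, against -0.0022 over all genes. Of the 26 genes in this list, 2 had 0 counts in all controls. FKBP5, named here as a textbook target and not by rule, had between 2 and 9 counts per library and was not tested. Among the called genes, the largest increases were in BIRC3 (from 46.9 ± 0.672 to 96.4 ± 1.06 CPM, log2 fold change 1.04), ZFP36 (0.85) and NFKBIA (0.85). NF-kB also induces all of these genes, and BIRC3 was labelled by the study on these libraries. The cause of their increases was not tested. ANGPTL4, an inhibitor of lipoprotein lipase, had 0.81, SAA1 0.58, the phosphatase gene DUSP1 0.52 and KLF9 0.51, the last losing its call without SMIP34 replicate 1, where the log2 fold change of KLF9 was 0.43. In the other direction, TSC22D3, the gene of GILZ and a direct target of NR3C1, fell from 34.5 ± 1.16 to 27.1 ± 0.770 CPM (-0.35, adjusted p = 1.68e-05, edgeR), METTL7A fell from 37.2 ± 3.01 to 24.5 ± 2.10 CPM (-0.60), and SCNN1A, a sodium channel subunit gene, had -0.23.

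ESRRA target genes, mostly of mitochondrial metabolism, were higher in 4 and lower in 10 of 29 tested (48.3%, against 34.6%), with a median log2 fold change of -0.05. ESRRA itself is among these 29 genes, and it was not called in this fit. With gene length offsets, 9 were called (31.0%, against 31.5% of all genes in the same fit), so that the share was then near that of all genes, and the median log2 fold change of ESRRA targets was -0.0016. SDHA, a subunit of succinate dehydrogenase, fell from 436 ± 10.3 to 349 ± 6.63 CPM (log2 fold change -0.32), COX5B of cytochrome c oxidase had -0.19 and NDUFA4 -0.16. With gene length offsets the log2 fold change of COX5B was -0.067, and it was still called. The superoxide dismutase gene SOD2 rose from 86.8 ± 1.25 to 104 ± 5.28 CPM (0.27, SD, n = 3 each), IDH3A of the citric acid cycle had 0.18, and CYCS, the gene of cytochrome c, had 0.12, a call lost with length and GC offsets (adjusted p = 0.0902 for the log2 fold change of CYCS).

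Genes of the chaperone cycle that folds steroid receptors were higher in 9 and lower in 1 of 17 tested (58.8%, against 34.6%), with a median log2 fold change of 0.10. DNAJB1, an HSP40 co-chaperone, rose from 145 ± 4.33 to 208 ± 1.41 CPM (log2 fold change 0.52), HSP90AA1 from 1567 ± 29.1 to 1972 ± 44.5 CPM (0.33) and its activator AHSA1 from 97.3 ± 1.11 to 118 ± 1.45 CPM (0.28, SD, n = 3 each). BAG1, a co-chaperone that binds steroid receptors, fell from 118 ± 1.32 to 96.2 ± 2.55 CPM (-0.30).

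Among genes that make or break down steroids, 2 were higher and 9 lower of 21 tested (52.4%, against 34.6%), with a median log2 fold change of -0.16. With gene length offsets 9 were called (42.9%, against 31.5% of all genes in the same fit). AKR1C2 fell from 79.0 ± 0.655 to 59.6 ± 2.11 CPM (log2 fold change -0.41), AKR1C1, which inactivates progesterone, fell from 112 ± 4.72 to 88.6 ± 3.54 CPM (-0.34, SD, n = 3 each), and the sulfotransferase gene SULT1A1 had -0.41. These genes have near-identical copies and hold fractional counts, so the split of reads among copies is uncertain. HSD17B2, which oxidises estradiol to estrone, was named after its values were seen, as the lower gene past the fold limit (from 0.906 ± 0.116 to 0.429 ± 0.255 CPM, -1.06, adjusted p = 0.0366). CYP1A1, a target of the aryl hydrocarbon receptor that hydroxylates estrogens, rose from 8.07 ± 0.553 to 11.4 ± 0.941 CPM (0.50). HSD17B8 had the largest log2 fold change, 3.04, and is annotated on 6 sequences of hg19. Its counts were 5, 3 and 13.2 in control and 9.5, 55.8 and 119.2 in SMIP34 replicates 1, 2 and 3, so that the groups overlapped and the value is uncertain.

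**Figure D5:**
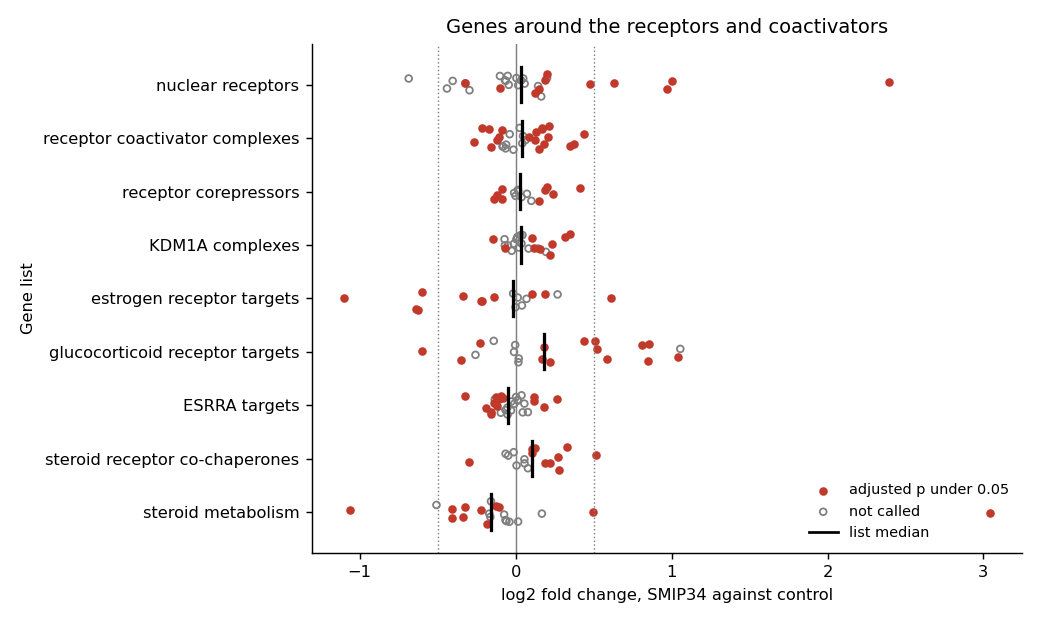
Log2 fold changes of SMIP34 against control for the tested genes of the 9 lists, with 1 point a gene, red at an adjusted p-value under 0.05 (edgeR) and open grey otherwise. Vertical bars are list medians and dotted lines mark the fold limit of 0.5. The medians run from -0.16 (steroid metabolism) to 0.18 (glucocorticoid receptor targets).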

How the data were processed

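RNA was sequenced from 3 control and 3 SMIP34-treated libraries of HEC-1-A cells, grouped by the treatment in their labels. The deposited values are estimated counts, that is, fractional read counts per gene. Per the file headers, the authors ran featureCounts 1.5.0-p1 on the exons of the UCSC hg19 annotation, on the reverse strand, at a minimum mapping quality of 2, dividing reads with several places or genes into fractions. The submitters' processing notes name HISAT2 for alignment and the methods name tophat2 and HTSeq. The labels name library kits of different makers.

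Counts were rounded. Genes were filtered with filterByExpr, scaled by TMM and tested with the quasi-likelihood method of edgeR 4.0.16 (legacy method off) in R 4.3.3, two-sided, with Benjamini-Hochberg adjustment over 13408 genes. Standard errors came from the F statistic. CPM use TMM-scaled library totals, and log2 CPM a prior count of 2.

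The members and gene lists were chosen with earlier results of these data known. Named genes were the members, PELP1, list genes past both thresholds or among the 3 largest changes in each direction at 1 CPM or more on average, the 5 most abundant other receptors, and the nearest gene of each called member. Exceptions are marked. Alternatives were DESeq2 1.42.0, limma voom 3.58.1, other scalings and filters, the legacy method, loess offsets (span 0.3) on length, a replicate block and leaving out each library. Offsets on length and GC content, and unrounded counts, were alternatives chosen after seeing the data. The procedure was tested on simulated data. Figures used matplotlib 3.10.9.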

Additional observations from a re-analysis of the deposited data

How the results depend on the processing

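KDM1A was called in all 19 fits and NCOA3 in 18, and 2 members were called in each fit, but with offsets on gene length and GC content, chosen after seeing the data, ESRRA (log2 fold change 0.10) took the place of NCOA3 (0.091, adjusted p = 0.0858). With gene length offsets the value of NR3C1 was -0.029 and that of NCOA1 -0.038, and with length and GC offsets they were -0.046 and -0.057. The cause was not tested. Without single libraries, the log2 fold change lay between -0.011 and 0.13 for NR3C1, between -0.055 and 0.079 for NCOA1 and between 0.15 and 0.55 for ESR2, and the log2 fold change of NR0B1 between -0.014 and 0.051, below 0 without control replicate 3 (-0.0025) or SMIP34 replicate 1. The 6 members expressed in control were the same under all 6 alternatives. Over all genes, between 3586 and 4706 genes passed the adjusted p-value, against 4645, and between 318 and 464 also the fold limit, against 444. The count of called ESRRA target genes went from 14 to 9 with length offsets and to 8 with length and GC offsets, and that of other receptor coactivator genes from 19 to 12 with length offsets. With length offsets the called share rose to 68.8% for corepressors, 70.6% for estrogen receptor targets and 70.6% for co-chaperones. It rose to 71.4% for glucocorticoid receptor targets, 41.4% for other nuclear receptors and 43.5% for KDM1A complexes, against 31.5% of all genes in that fit. With the replicate number as a block, KDM1A had 0.18 and NCOA3 0.19, and the number of genes called at adjusted p was 4432. Deviations of libraries with the same number had correlations of -0.028, 0.033 and -0.011, so the numbers were not read as pairing. DESeq2 gave no adjusted p for ESR2. Depth limits ESR1, PGR and ESR2, which had 0 to 20 counts per library.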
